A study of Rattus norvegicus with 8 samples.

Results

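The genes described here are a chosen set of 38 genes of the cell cycle and of cell proliferation, measured in the rat basolateral amygdala. They were taken by name, with earlier results of these data known. The set holds the D-type, E-type, A-type and B-type cyclins and their kinases, the inhibitors of those kinases and the replication machinery. It also holds the kinases, motors and checkpoint proteins of mitosis. Of the 38 genes, 36 were matched by name to a probe set of the array, out of 14217 named genes in all, and Rrm2 and Tpx2 were not matched here. A gene read by several probe sets is represented by the one with the highest mean signal. Of the 36 genes, 24 lay above the filter on dim probe sets, a mean log2 signal of 4.35 over the 8 arrays, and only these were tested. The other 12 are called dim below and are given as values. Just inside the filter were Ccnb2 with a mean of 4.36 and Plk1 with 4.37, and just outside it were Kif11 with 4.25 and Mcm3 with 4.22.

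The study asked how the amygdala of rats on the way to epilepsy responds to fear conditioning. All rats had 5 habituation sessions of 10 min, and on day 8 after stimulation a training of 2 trials with a 20 s tone of 75 dB and a 1 s footshock of 1.5 mA. Control rats were operated but not stimulated. Epileptogenic rats were stimulated in the amygdala and went through status epilepticus, with at least 40 high-amplitude and high-frequency discharges in its first 3 h, and had no spontaneous seizure up to the end of the study. In paired training the tone ended together with the shock. In unpaired training the shock came before the tone, so the unpaired rats received the same stimuli and no group was left untrained. Tissue was taken 3 h after training, and the lateral and basal nuclei of one side were cut out by laser microdissection. Crossing control or epileptogenic with unpaired or paired training gave 4 groups, and each had 4 rats on 2 arrays, named A and B, and each array pooled the amplified RNA of 2 rats. The strain and age are not given in the sources used here. P-values therefore measure the spread between pooled samples, and the control rats carry the effects of the operation too.

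A cell enters the cycle when D-type cyclins and their kinases, and then the E-type cyclin with its kinase, inactivate the retinoblastoma proteins and release the E2F factors, which switch on the genes of DNA replication. Genes of mitosis follow later, under the B-type cyclins, the Aurora and Polo kinases and the spindle checkpoint, and kinase inhibitors hold the cycle back. Mature neurons do not divide, while microglia, oligodendrocyte precursors, endothelial cells and, after injury, astrocytes can.

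Values are log2 signals, given for each group of 4 arrays in the order unpaired A, unpaired B, paired A and paired B. A difference is the epileptogenic mean minus the control mean over both trainings, on the log2 scale, with its standard error (SE). A gene passed when its limma p, adjusted over all 18625 tested probe sets by the method of Benjamini and Hochberg, was under 0.05. Arrays of the same letter deviated together in every pair of groups, so the p with the letter as a block stands beside a result whose call it changes.

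Between epileptogenic and control rats, 2 of the 24 tested genes passed, Top2a and Aurka, both higher, and none passed as lower. Both had a control mean under the filter and cleared it through their epileptogenic arrays, and with no filter neither passed (limma adjusted p = 0.0606 and 0.0849). The count is 8.33% of the tested genes, against 3.63% of all tested probe sets, of which 2.81% passed as higher and 0.827% as lower. With the letter as a block, 10 of the 24 passed as higher (Ccnd1, Cdkn1a, Cdkn1b, Cdkn2c, Mcm2, Mcm7, Pcna, Aurka, Aurkb and Top2a) and none as lower. Over all tested probe sets the block gave 7.58% higher and 8.65% lower. At an unadjusted p under 0.05, limma gave 11 of the 24 genes, or 45.8%, against 18.4% of all probe sets.

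The differences leaned one way, in genes that were chosen with earlier results of these data known. A comparison with all probe sets therefore describes the set and is not independent evidence. Of the 24 tested genes, 17 were higher in epileptogenic rats, or 70.8%, against 39.8% of all tested probe sets, and their median difference was 0.57 against -0.11 over all tested probe sets. In 10 of the 24 genes all 4 epileptogenic arrays lay above all 4 control arrays, and in none did they all lie below. Of these 10, 5 (Mcm2, Ccnb2, Aurka, Top2a and Nusap1) had a control mean under the filter and an epileptogenic mean above it, so the filter kept them through the group where they are high. In Plk1 alone it was the other way round. Over all tested probe sets these shares were 7.29% above and 7.77% below. Among the 12 dim genes, 9 had a higher mean in epileptogenic rats, 3 had arrays that did not overlap, all higher, and the median difference was 0.69. Over all 36 genes on the array, with no filter, 26 were higher, 13 had arrays that did not overlap, and the median difference was 0.63. The median over all 31042 probe sets with no filter was -0.12. Shares of higher and of non-overlapping probe sets were not counted among dim probe sets or without the filter. The counts for the dim genes and for all 36 therefore have no such background beside them. The median of the 24 tested genes, each taken relative to its own control mean, was 0.01, 0.14, -0.30 and 0.09 in the control arrays and 0.52, 0.90, 0.52 and 0.40 in the epileptogenic arrays. All 4 epileptogenic arrays were therefore above all 4 control arrays on this measure, while the same median over all tested probe sets lay between -0.10 and 0.04 in every array.

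**Figure D1:**
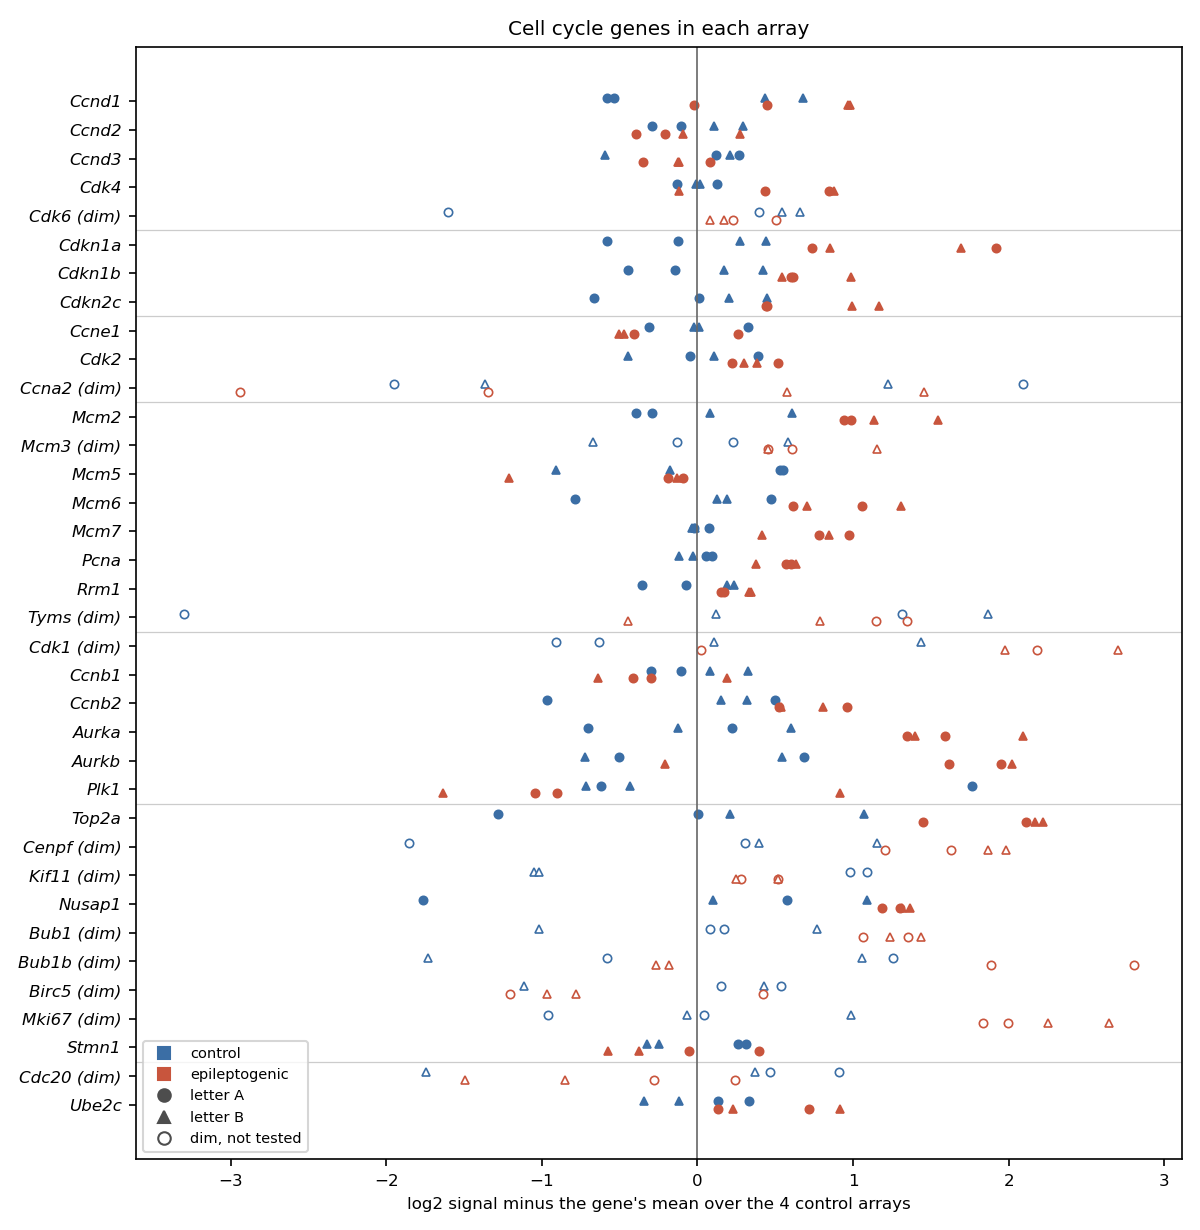
Each line is 1 gene and each point 1 of the 8 arrays, as the log2 signal minus the gene's own control mean on the x axis; blue is control, red epileptogenic, circles letter A, triangles letter B, open symbols dim genes, and grey lines part the roles. In Top2a, Aurka, Mki67, Mcm2, Mcm7 and Pcna all red points lie to the right of all blue ones, while in Ccnd2, Ccne1, Plk1 and Birc5 they overlap or lie to the left.

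Top2a, the topoisomerase that untangles DNA before chromosomes separate, had the larger difference of the pair that passed. Its log2 signal was 4.03, 5.10, 2.75 and 4.24 in the control arrays and 6.14, 6.25, 5.48 and 6.20 in the epileptogenic arrays. Every epileptogenic array was above every control array, with a gap between 5.10 and 5.48. The control mean was 4.03 ± 0.97 (SD, n = 4), under the filter, and the epileptogenic mean 6.02 ± 0.36 (SD, n = 4). The difference was 1.99 (SE 0.44), or 3.97-fold, with a limma adjusted p of 0.0417, and of 0.00374 with the letter as a block. On its other probe set, which was dim and had overlapping groups, the difference was 1.03. Aurka, the kinase that matures the spindle poles, read 3.31, 3.89, 4.24 and 4.62 in control arrays and 5.36, 6.11, 5.61 and 5.41 in epileptogenic arrays. Again no array of one group fell within the range of the other. The means were 4.02 ± 0.55 and 5.62 ± 0.34 (SD, n = 4 each), the difference 1.61 (SE 0.37), or 3.05-fold against a control mean under the filter, and the limma adjusted p 0.0472 (0.0109 with the block). Both calls sat close to the threshold: when 1 array was left out, Top2a passed in 1 of 8 fits, that without control paired B, and Aurka in 0 of 8, with differences of 1.62 to 2.36 and of 1.42 to 1.79. An offset of 16 added to the signal before log2, which damps differences between dim signals, gave 1.27 for Top2a and 1.01 for Aurka, both still past the threshold (limma adjusted p = 0.0269 and 0.0401). Over the alternatives the adjusted p ran from 0.00374 to 0.144 for Top2a and from 0.0109 to 0.197 for Aurka.

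Mki67, a chromosome-coating protein found in cycling cells and widely used to mark them, had the largest log2 difference of the 36 genes without an offset, but was dim and therefore untested. Its log2 signal was 3.08, 4.02, 2.08 and 2.97 in control arrays and 4.87, 5.29, 5.03 and 5.68 in epileptogenic arrays. All epileptogenic arrays were above all control arrays, and above the filter, while all control arrays were below it. The difference was 2.18, from 1.95 to 2.42 when any 1 array was left out, and 1.11 with the offset of 16, where that of Top2a was larger. With no filter on dim probe sets its limma adjusted p was 0.0696 and its unadjusted p 0.00172.

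The promoters of Top2a, Aurka and Mki67 are shown because these genes had the largest differences among those that passed and those that were dim, and that of Mcm7 because it is the replication gene with the smallest adjusted p. Each is the 120 bases before the RefSeq transcription start in the rat build GRCr8, 5′ to 3′ on the gene's strand, and capitals mark matches to the motifs named below.
Top2a, chr10:84473094-84473213, minus strand: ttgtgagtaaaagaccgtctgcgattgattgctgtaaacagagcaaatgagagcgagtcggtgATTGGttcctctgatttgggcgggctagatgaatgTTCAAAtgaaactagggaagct
Aurka, chr3:181560770-181560889, minus strand: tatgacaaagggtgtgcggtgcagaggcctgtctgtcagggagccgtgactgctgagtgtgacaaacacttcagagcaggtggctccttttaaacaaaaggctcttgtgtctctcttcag
Mki67, chr1:199952594-199952713, minus strand: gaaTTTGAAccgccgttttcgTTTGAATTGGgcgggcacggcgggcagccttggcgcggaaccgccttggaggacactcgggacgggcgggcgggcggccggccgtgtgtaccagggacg
Mcm7, chr12:22163179-22163298, minus strand: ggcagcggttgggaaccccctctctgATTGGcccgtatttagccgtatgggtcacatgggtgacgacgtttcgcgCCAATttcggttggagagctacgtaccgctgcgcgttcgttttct

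The motifs searched on both strands were TTTGAA, the core of the cell cycle homology region (CHR), CCAAT, the box bound by the NF-Y factor, and GCGGGAA, a core read by E2F factors. CHR and CCAAT matches are the ones that fall in the windows printed, and in Mki67 a pair of them overlap by their shared base. Over the 250 bases before the start, 30 of the 36 genes had a RefSeq promoter. Of these, 21 held CCAAT, or 70.0%, against 34.0% of all 33469 promoters. TTTGAA was in 7, or 23.3%, against 16.2%, and GCGGGAA was in 4, or 13.3%, against 3.36%. The 33469 promoters were not limited to genes on the array or above the filter. A match is a description of the letters, and neither the 120 nor the 250 bases of Aurka held one. Whether the RefSeq start of a gene is the one used in this tissue was not tested.

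Among the D-type cyclins and their kinases, none of the 4 tested genes passed, and Ccnd1 alone passed with the block. Ccnd1, the cyclin that couples growth signals to the cycle, read 6.09, 7.05, 6.04 and 7.30 in control arrays and 7.06, 7.60, 6.60 and 7.59 in epileptogenic arrays. The groups overlapped, and in each group the B array was higher than the A array. The difference was 0.59 (SE 0.37), with a limma adjusted p of 0.438, and of 0.0475 with the letter as a block. Its further probe sets gave differences of 0.94 and -0.13, so they disagreed in sign. Ccnd2, the cyclin of precursor cells and of some neurons, read 7.93, 8.33, 7.75 and 8.14 in control arrays and 7.83, 8.31, 7.64 and 7.94 in epileptogenic arrays. Its groups overlapped almost fully, and the difference of -0.11 (SE 0.22) did not pass (limma adjusted p = 0.843). Cdk4, the kinase partner of these cyclins, differed by 0.51 (SE 0.21) without passing (limma adjusted p = 0.225), with epileptogenic paired B, at 6.93, inside the control range of 6.91 to 7.17. Ccnd3 differed by -0.13 and the dim Cdk6 by 0.25.

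The 3 kinase inhibitors of the set, which restrain the cycle, pointed the same way as most of the genes that drive it. All 3 were higher in epileptogenic rats, none passed without the block, and all 3 passed with it. Cdkn1a, an inhibitor switched on by p53 after DNA damage and stress, read 5.37, 5.93, 4.92 and 5.77 in control arrays and 6.23, 7.19, 7.41 and 6.35 in epileptogenic arrays. The groups did not overlap, and the difference was 1.30 (SE 0.36), or 2.46-fold, with a limma adjusted p of 0.0860 and 0.0231 with the letter as a block. Cdkn1b, an inhibitor abundant in cells that have stopped dividing, read 8.05, 8.36, 7.74 and 8.61 in control arrays and 8.79, 9.17, 8.80 and 8.73 in epileptogenic arrays. Its groups did not overlap either, and the difference of 0.69 (SE 0.23) had a limma adjusted p of 0.158 and 0.0199 with the block. Cdkn2c, an inhibitor of the D-cyclin kinases, read 5.64, 5.83, 4.96 and 6.08 in control arrays and 6.06, 6.80, 6.07 and 6.62 in epileptogenic arrays. Control paired B, at 6.08, lay above the lowest epileptogenic array, and the difference of 0.76 (SE 0.32) had a limma adjusted p of 0.247 and 0.0433 with the block. Each of these 3 inhibitors had another, dimmer probe set whose difference had the opposite sign. These differed by -0.07 for Cdkn1a and -0.75 for Cdkn1b, both dim, and by -0.02 for Cdkn2c. Genes outside the set that are named as kinase inhibitors, from the wider lists below, were split. Cdkn1c differed by 0.80 (limma adjusted p = 0.269) and Cdkn2d by -0.18 (limma adjusted p = 0.786). Among the dim ones, Cdkn3 differed by 2.77, from a control mean of only 1.25, Cdkn2a by -1.57 and Cdkn2b by -0.66.

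At the step from G1 to S phase, neither of the 2 tested genes passed. Ccne1, the E-type cyclin, differed by -0.28 (limma adjusted p = 0.645) and its kinase Cdk2 by 0.36 (limma adjusted p = 0.677). The S-phase cyclin Ccna2 was dim, with a difference of -0.56.

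Of the replication genes, 8 were on the array and 7 of these were higher in epileptogenic rats, with a median difference of 0.69 over the 8. None of the 6 tested passed, 3 passed with the block, and 4 had arrays that did not overlap. Pcna, the clamp that holds DNA polymerase on its template, read 9.85, 9.68, 9.89 and 9.77 in control arrays and 10.40, 10.17, 10.37 and 10.43 in epileptogenic arrays. Replicates were tight, with means of 9.80 ± 0.09 and 10.34 ± 0.12 (SD, n = 4 each). Its difference of 0.55 (SE 0.16), or 1.46-fold, had a limma adjusted p of 0.102, and of 0.0101 with the letter as a block.

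The Mcm genes encode the ring-shaped helicase that opens DNA at replication origins. Mcm7 read 6.91, 6.80, 6.81 and 6.82 in control arrays and 7.62, 7.68, 7.81 and 7.25 in epileptogenic arrays. The control arrays were close to each other and all lay below the lowest epileptogenic array. The difference was 0.75 (SE 0.21), or 1.69-fold, with a limma adjusted p of 0.0873, and of 0.0150 with the block. Mcm2 read 3.91, 4.81, 3.80 and 4.28 in control arrays and 5.14, 5.75, 5.19 and 5.34 in epileptogenic arrays, again with no overlap. Its control mean was under the filter, and the difference of 1.15 (SE 0.38), or 2.22-fold, had a limma adjusted p of 0.148 and 0.0413 with the block. Mcm6 read 3.91, 4.89, 5.18 and 4.82 in control arrays and 5.32, 6.01, 5.76 and 5.41 in epileptogenic arrays. It did not overlap, but its difference of 0.92 (SE 0.35) passed neither without the block (limma adjusted p = 0.200) nor with it (0.0856). Mcm5 ran the other way, at -0.41 (limma adjusted p = 0.679), and the dim Mcm3 differed by 0.67. For nucleotide supply, Rrm1, the large subunit of ribonucleotide reductase, differed by 0.25 (limma adjusted p = 0.630) and the dim thymidylate synthase gene Tyms by 0.71.

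**Figure D2:**
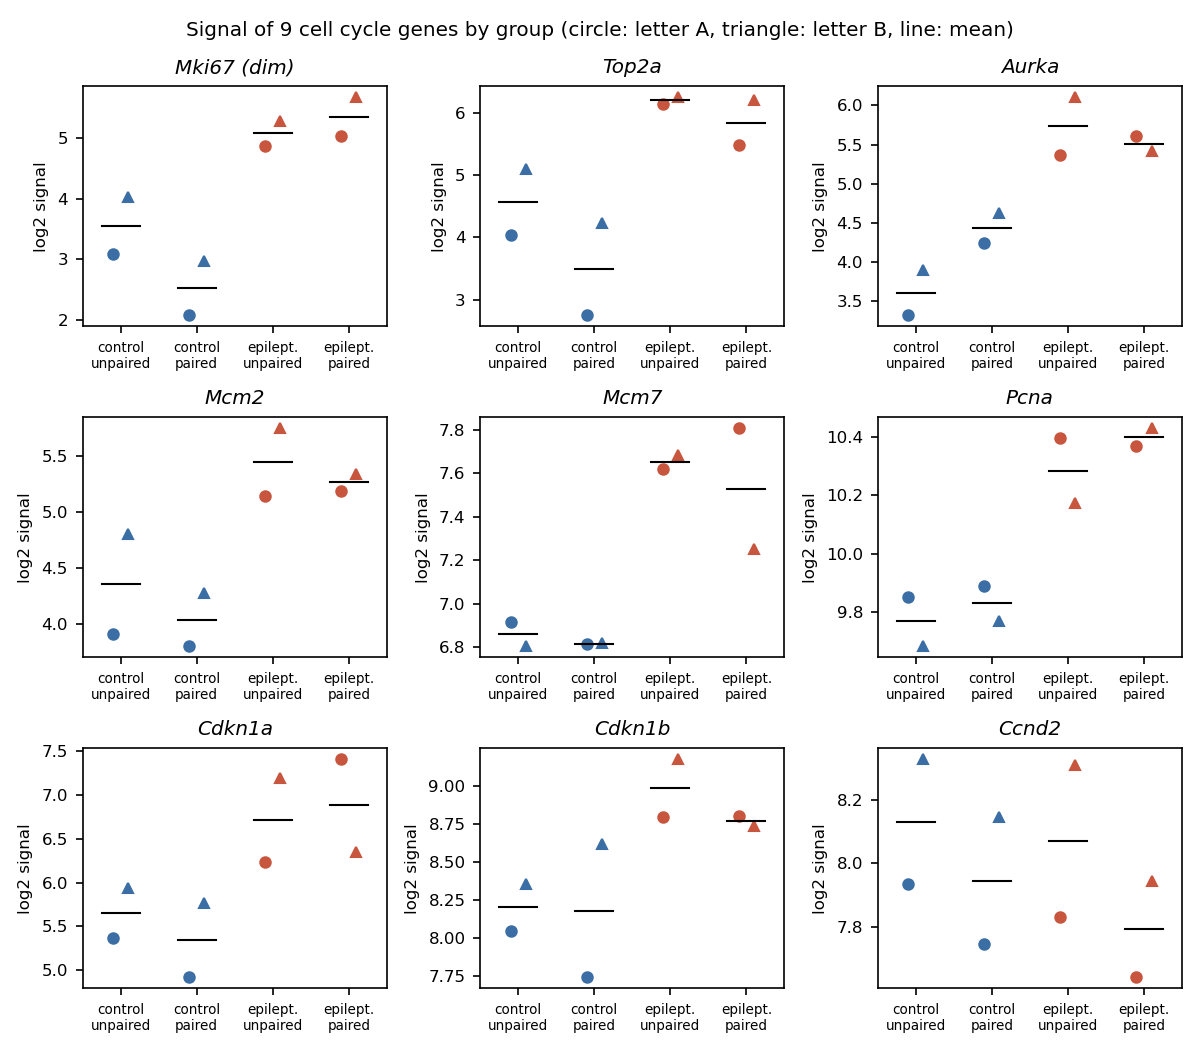
Each of the 9 panels plots the log2 signal of 1 gene on its own y axis, which does not start at 0, for the 4 groups on the x axis, with circles for letter A, triangles for letter B and a line for the mean of the 2 arrays. In 8 of the panels the epileptogenic arrays (red) all lie above the control arrays (blue), and in that of Ccnd2 the groups overlap. The 9 genes were picked for display and do not stand for the set. Of the 24 tested genes 10 separated in this way, against 7.29% of all tested probe sets. With the 12 dim genes, Mki67 among them, it was 13 of 36, for which no such background was counted.

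At mitotic entry, Aurka was the one gene of the 5 tested that passed, and Aurkb passed with the block. Aurkb, the kinase that corrects chromosome attachment, read 5.47, 5.33, 4.28 and 4.06 in control arrays and 6.40, 6.81, 6.74 and 4.58 in epileptogenic arrays. Epileptogenic paired B, at 4.58, was the one epileptogenic array inside the control range, and the control arrays themselves split by training. The difference was 1.34 (SE 0.44), with a limma adjusted p of 0.143 and of 0.0431 with the block. Without epileptogenic paired B it was 1.89 and passed, and over the arrays left out in turn it ran from 0.80 to 1.89. The mitotic kinase Cdk1 was dim, at 1.58, 2.59, 1.85 and 3.92 in control arrays and 4.67, 5.19, 2.51 and 4.46 in epileptogenic arrays. Its difference was 1.72, and epileptogenic paired A lay within the control range. Ccnb2, a B-type cyclin that activates Cdk1, read 3.04, 4.33, 4.51 and 4.16 in control arrays and 4.97, 4.55, 4.54 and 4.81 in epileptogenic arrays. The groups nearly touched, with 4.51 as the highest control and 4.54 as the lowest epileptogenic array, and the difference of 0.71 (SE 0.46) did not pass (limma adjusted p = 0.457). Ccnb1, its close relative, differed by -0.29 (limma adjusted p = 0.651) on its brighter probe set and by 1.53 on a dim one. Plk1, the Polo kinase of mitosis, differed by -0.67 (limma adjusted p = 0.647).

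The spindle, chromosome and checkpoint genes had the highest median difference of the roles, 1.27 over the 9 on the array, 7 of them higher, although 6 of the 9 were dim. Of the 3 tested, Top2a passed. Nusap1, which bundles spindle microtubules, read 4.71, 4.23, 2.37 and 5.22 in control arrays and 5.44, 5.45, 5.32 and 5.50 in epileptogenic arrays. The epileptogenic arrays lay close together, the control arrays spread widely with control paired A lowest, and the difference of 1.29 (SE 0.58) did not pass (limma adjusted p = 0.275). Without control paired A it was 0.58, and without control paired B it was 2.00 and passed. The other probe set of Nusap1 was dim, with overlapping groups and a difference of 0.15. Cenpf, a kinetochore protein, was dim, at 3.64, 4.49, 1.48 and 3.73 in control arrays and 4.54, 5.20, 4.97 and 5.32 in epileptogenic arrays. The checkpoint kinase Bub1, dim too, read 3.49, 4.17, 3.57 and 2.39 in control arrays and 4.47, 4.64, 4.76 and 4.84 in epileptogenic arrays. Neither overlapped, with differences of 1.67 and 1.27. The checkpoint gene Bub1b differed by 1.06, the motor Kif11 by 0.39 (-0.28 on its other probe set) and Birc5, a partner of Aurkb, by -0.63, all dim. Stmn1, a tubulin-binding protein abundant in neurons as well as in dividing cells, read 11.18, 10.67, 11.23 and 10.60 in control arrays and 10.87, 10.55, 11.32 and 10.35 in epileptogenic arrays. It separated by letter, A above B in every group, and not by epileptogenesis, with a difference of -0.15 (SE 0.26; limma adjusted p = 0.809).

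Of the genes of mitotic exit, Ube2c, an enzyme that tags cyclins for destruction, differed by 0.50 (SE 0.33) and did not pass (limma adjusted p = 0.469). Cdc20, which activates that destruction, was dim on all 5 of its probe sets. They disagreed, from -0.96 to 1.72, with -0.60 on the brightest of them.

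Split by training, no gene passed. After unpaired training 18 of the 24 genes, or 75%, were higher in epileptogenic rats, against 39.2% of all tested probe sets. The median difference was 0.73 against -0.14 over all tested probe sets. After paired training it was again 18, against 44.7% of all tested probe sets, with a median of 0.47 against -0.06. As above, the filter kept 5 of the 24 through their epileptogenic arrays. All tested probe sets passed at 0.317% and 0.532%, and at an unadjusted p under 0.05 limma gave 7 and 5 of the 24 genes, or 29.2% and 20.8%, against 12.5% and 9.92% of all probe sets. With the letter as a block, Aurka passed after unpaired training (difference 2.13, SE 0.52; limma adjusted p 0.141 without the block and 0.0285 with it), where 7.01% of all probe sets passed. After paired training Top2a did so (2.35, SE 0.62; 0.184 and 0.0219), where 4.62% passed. The test of the difference between the trainings called neither: the change after paired minus that after unpaired training was -1.05 (SE 0.73) for Aurka and 0.72 (SE 0.88) for Top2a, the lowest and the highest of the 24, each with a limma adjusted p of 0.9998.

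Between paired and unpaired training none of the 24 genes and 0% of all tested probe sets passed, in control rats, in epileptogenic rats, over both together and in the test of the difference between them, with or without the block. At an unadjusted p under 0.05 limma gave 1 of the 24 genes over both together, Aurkb with a paired minus unpaired difference of -1.09 and a limma adjusted p of 0.9999. It gave none in control rats, 1 in epileptogenic rats and none in the test of the difference. Over all tested probe sets these shares were 1.15%, 1.68%, 1.22% and 1.47%, in the same order. The gene in epileptogenic rats was Cdk4, with a paired minus unpaired difference of -0.70.

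**Figure D3:**
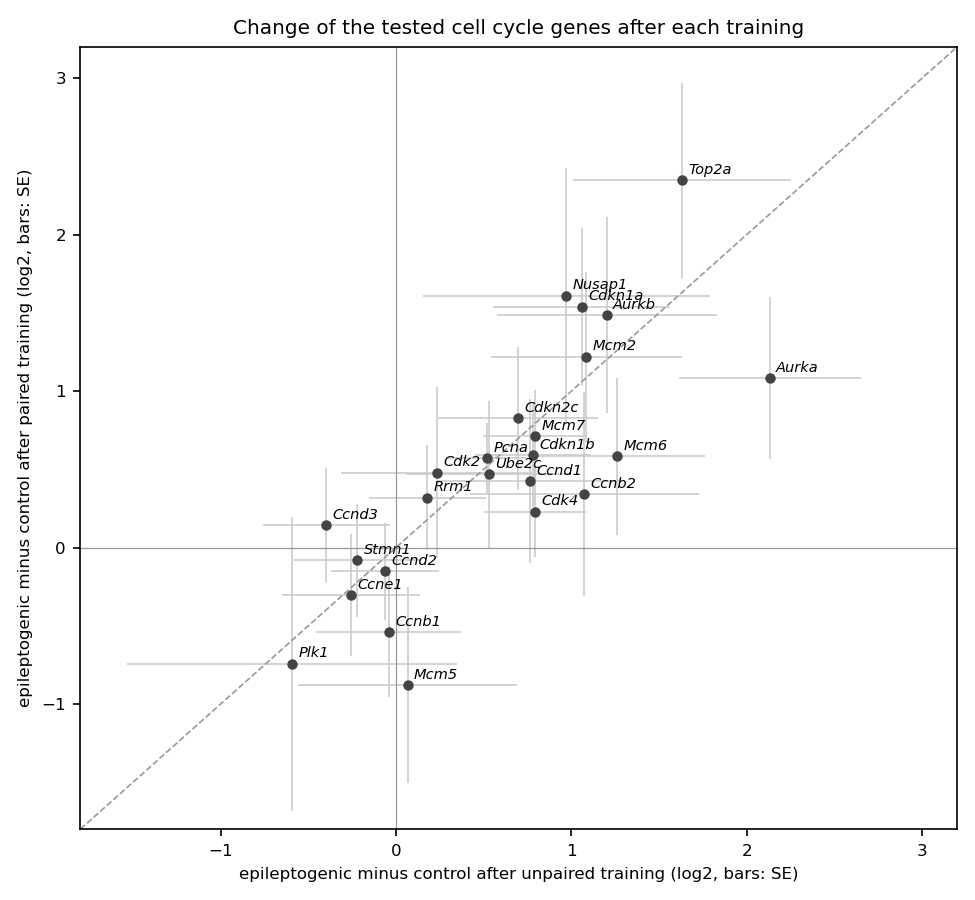
Each point is a tested gene, with the epileptogenic minus control difference after unpaired training on the x axis and after paired training on the y axis, both on the log2 scale, bars for the SE and a dashed line where both are equal. Aurka sits furthest to the right at 2.13 and Top2a highest at 2.35, and no gene passed the test of the difference between trainings.

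Wider lists of the same pathway, which share no gene with the 38, are to be read against the same shares of all tested probe sets: 2.81% higher and 0.827% lower, and with the block 7.58% higher and 8.65% lower. Of 14 tested G1 to S regulators none passed, and 3 passed with the block, all pocket proteins of the retinoblastoma family that hold E2F in check. Rb1 differed by 0.81 (limma adjusted p = 0.0860; 0.00779 with the block), Rbl1 by 1.21 (0.136; 0.0211) and Rbl2 by 0.56 (0.207; 0.0485). Of 15 tested genes of replication licensing and DNA synthesis none passed with or without the block, and their median difference was -0.05. The smallest p-values there belonged to Tk1, a thymidine kinase, at 0.96 (limma adjusted p = 0.189), and Orc6, an origin recognition subunit, at -0.36 (0.430).

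Of 32 tested genes of mitosis and chromosome segregation, Ttk passed and none passed as lower, with a median difference of 0.11. Ttk, the checkpoint kinase that acts upstream of Bub1, read 5.25, 5.36, 4.53 and 4.46 in control arrays and 6.30, 6.66, 6.82 and 6.88 in epileptogenic arrays. Its difference of 1.76 (SE 0.24) had a limma adjusted p of 0.00551, smaller than that of any of the 24 genes. With the block 4 were higher (Ttk, Smc2, Smc4 and Ect2) and 2 lower (Wee1 and Zwint), out of the 32. Of 9 tested targets of p53 and growth arrest genes, Btg1, an antiproliferative gene, passed with a difference of 0.68 (SE 0.15; limma adjusted p = 0.0419), and the median difference was 0.52. With the block 4 of the 9 were higher, Btg1, Mdm2, Gadd45b and Ccng1. The genes called with the block alone were named after their values were seen.

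**Figure D4:**
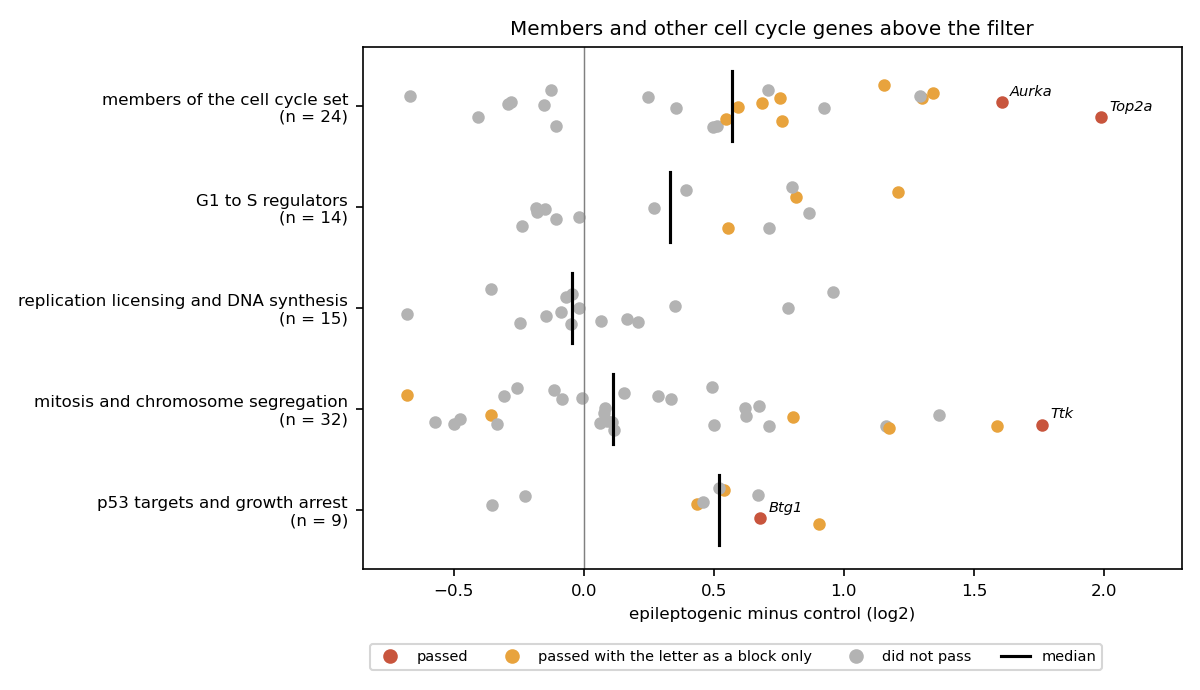
Each point is a tested gene of the set described here or of a wider list, placed by its epileptogenic minus control difference on the log2 scale; red passed, orange passed with the letter as a block only, grey did not pass, and the black line is the median (vertical scatter has no meaning). The medians are 0.57 for the set, 0.33 for G1 to S regulators, -0.05 for replication licensing, 0.11 for mitosis and 0.52 for p53 targets and growth arrest.

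Markers of several cell types moved between the same arrays. In bulk tissue, fewer cells of a type and less RNA per cell cannot be told apart, and the same holds for more of either. Of 10 tested microglia and macrophage markers 8 passed as higher, 9 with the block, and the summed signal of all 11 on the array was 863 to 1246 in control arrays and 4073 to 6652 in epileptogenic arrays. Of 7 astrocyte markers 3 passed as higher, 4 with the block (summed signal 13820 to 24200 against 20770 to 26160). Of 5 tested excitatory neuron markers 3 passed as lower, 4 with the block (1544 to 2309 against 835 to 978). Meningeal and fibroblast markers did not pass without the block, 4 of 5 passed with it, and their summed signal was 185 to 326 against 432 to 1523. None of the 5 tested markers of oligodendrocyte precursors and none of the 4 of neural precursors and immature neurons passed. Pdgfra, the receptor that defines oligodendrocyte precursors, differed by -0.01 and Cspg4 of the same cells by 1.12 (limma adjusted p = 0.125, and 0.0102 with the block). Sox10 differed by 0.93, Olig1 by 0.31 and Ptprz1 by 0.20 (summed signal of the list 2688 to 2955 against 2817 to 3582). The neural precursor and immature neuron markers were split. Dcx differed by -0.45 (limma adjusted p = 0.290), Igfbpl1 by -0.84, Sox2 by 0.41 and Nes by 0.69 (summed signal of the list 1174 to 1758 against 1256 to 2567). Of the 6 endothelial markers none passed without the block and 1, Vwf, did with it (0.98; limma adjusted p = 0.110, and 0.0345 with the block; summed signal 765 to 1052 against 937 to 1417). None of the 4 of pericytes tested passed (200.0 to 252 against 242 to 286). Of the blood-derived myeloid markers 1 of 2 tested passed, Mrc1 at 1.42, and Lyz2 at 0.69 did not (limma adjusted p = 0.266; summed signal of the list 452 to 1287 against 1204 to 2087). The other markers of this list were dim and split. S100a9 differed by 1.75, Ccr2 by 0.22, S100a8 by -0.03, Cd163 by -0.64 and Ly6c by -0.58. All 7 lymphocyte markers on the array were dim (92.7 to 110.0 against 40.1 to 110.0). Of the GABAergic interneuron markers 1 of 4 tested passed as lower (3464 to 5148 against 1936 to 4399), and of the 5 of mature oligodendrocytes none passed without the block and 2 did with it (5098 to 6397 against 6419 to 14770). The 1 red blood cell marker tested did not pass (107 to 210 against 30.4 to 142 over the list). No marker was at a signal of 0. The part of these cell types in the differences of the cell cycle genes was not tested.

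**Figure D5:**
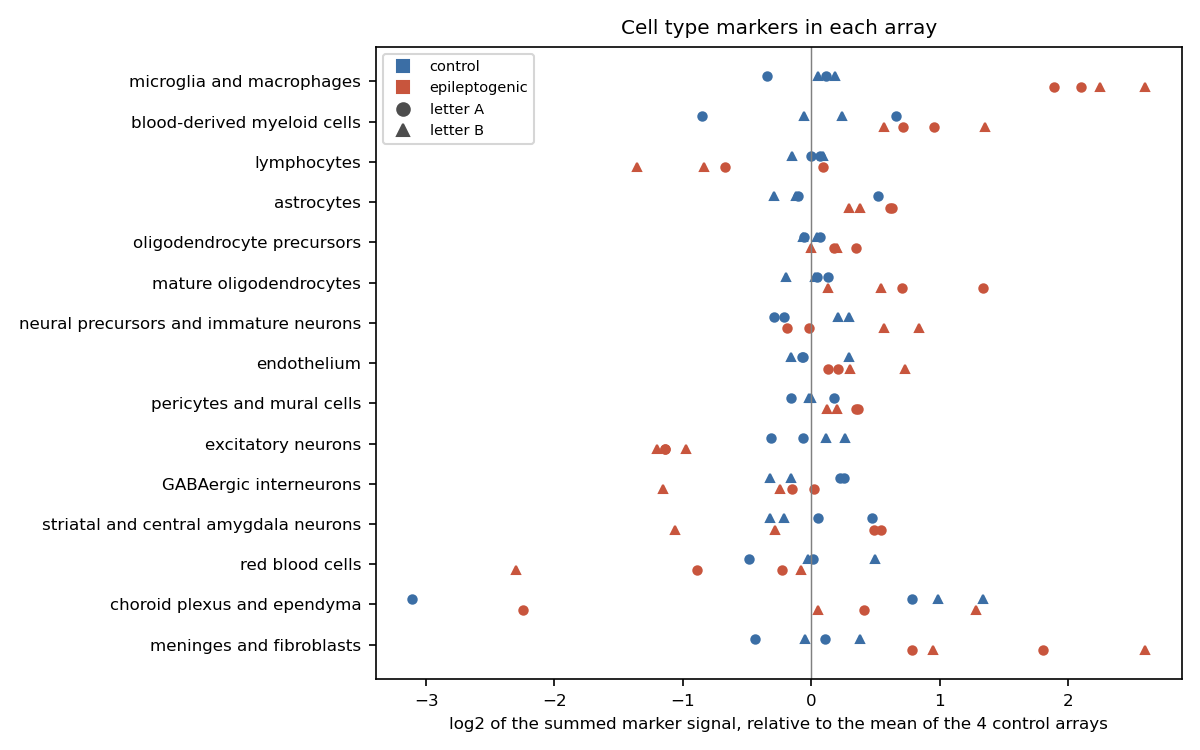
Each point is the summed signal of a marker list in 1 array, as log2 relative to the mean of the 4 control arrays on the x axis, with control in blue, epileptogenic in red, circles for letter A and triangles for letter B. Microglial markers stand between 1.89 and 2.60 in the 4 epileptogenic arrays, and those of excitatory neurons between -1.20 and -0.97.

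As for the tissue itself, the excitatory neuron markers Slc17a7 and Neurod6 were above the filter, with control means of 5.43 and 8.34, and Tbr1 was dim. All 6 striatal and central amygdala markers were above the filter as well, at a summed signal of 2237 to 3876 in control and 1334 to 4075 in epileptogenic arrays. Choroid plexus and ependyma markers ran from 238 to 5199 in control and from 434 to 4995 in epileptogenic arrays. The median signal of an array was 29.0 to 43.2 in control and 30.4 to 36.6 in epileptogenic arrays. The ratio of 3′ to 5′ probe sets, which rises as RNA is degraded or amplified from its end, was 3.65 to 21.4 for actin in control and 8.40 to 21.9 in epileptogenic arrays, and 10.1 to 12.9 and 8.54 to 18.2 for Gapdh. By letter, the actin ratio was 3.65 to 12.35 in A arrays and 14.08 to 21.88 in B arrays. The median signal was 34.96 to 43.16 in A arrays and 29.03 to 33.85 in B arrays, while the Gapdh ratio overlapped between the letters. The part of these ratios and of the median signal in the differences above, and in the calls that the block changed, was not tested.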

How the data were processed

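Laser-microdissected lateral and basal amygdala was hybridized to 8 Affymetrix Rat Genome arrays. The deposited values are linear MAS5 signal intensities of probe sets, per the labels; its version and scaling target are not given in the sources used here. Of 31099 probe sets, 57 controls were left out. Intensities were taken to log2 with no further normalization, and the 40th percentile of mean log2 signal was the filter (signal 20.3), which left 18625 of 31042. A symbol came from the platform table: 20826 probe sets had 1, 436 several and 9780 none.

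limma 3.58.1 in R 4.3.3 fitted 4 group means with an intensity trend (4 residual degrees of freedom), and p-values were adjusted by Benjamini-Hochberg at 0.05. The script was tested on simulated data. Plots were drawn in Python with matplotlib 3.10.9. Deviations from group means correlated between arrays of the same letter at 0.321 to 0.407 in all 6 pairs of groups, so the letters A and B were taken to pair the arrays; what a letter stands for is not given. No arrays held identical values.

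Values per array are given by rule for members that passed with or without the block, for those whose 4 epileptogenic and 4 control arrays did not overlap with a difference of at least 0.5, and for Mki67, Top2a, Cdk1, Pcna, Mcm2, Ccnd1, Ccnd2, Cdkn1a and Stmn1. The members and lists were chosen with earlier results of these data known. Alternatives were the block, quantile normalization, median centring, an offset of 16, no filter or the 60th percentile, no trend, array weights, averaging all probe sets of a gene, within-letter fits and leaving out each array. Promoters are from RefSeq for GRCr8.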

Additional observations from a re-analysis of the deposited data

Results flagged for a closer look

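In 6 of 48 groups of 4 arrays, taken over the 24 tested genes, 1 array stood apart from the other 3. The mark was Dixon's critical value for 4 samples, which chance passes in about 1 in 20 groups of independent, normally distributed values. Each group here joins both trainings and both letters, so that rate may not hold. The share over all tested probe sets was not counted. The ratio given is the gap to the nearest other array over the whole range of the group. Among epileptogenic arrays, Top2a was low in paired A (5.48 against 6.14 to 6.25; ratio 0.860), Mcm5 was low in paired B (3.92 against 4.95 to 5.04; 0.918), Cdkn1b was high in unpaired B (9.17 against 8.73 to 8.80; 0.841) and Ccne1 was high in unpaired A (6.07 against 5.31 to 5.41; 0.871). Among control arrays, unpaired A was high for Plk1 (6.47 against 3.99 to 4.27; 0.887) and for Mcm7 (6.91 against 6.80 to 6.82; 0.854).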

How the results depend on the processing

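The count of cell cycle genes that passed as higher in epileptogenic rats was 2 of 24 and changed with most choices. It was 10 with the replicate letter as a block, 1 with no intensity trend (Aurka), 1 with averaging all probe sets of a gene (Aurka, 20 tested), 1 within letter A (Cdkn1b) and 1 within letter B (Top2a), and 0 with quantile normalization, with median centring, with no filter (36 tested) and with the 60th percentile as the filter (11 tested). It stayed at 2 with an offset of 16 and with array weights, and ran from 0 to 2 when 1 array was left out. The block gave 1 gene after unpaired and 1 after paired training, against 0 and 0 without it, and changed no other call on these genes. Of the single differences, that of Cdkn1b was -0.034 with the mean of its probe sets, that of Ccnd2 ran from -0.23 to 0.0125 and that of Stmn1 from -0.39 to 0.092 when 1 array was left out. In all, 309 single-gene values counted as unchanged, 25 lost a call, 11 gained one, 4 reversed and 2 moved. For a tested gene, unchanged meant the same direction and the same side of the threshold. For the dim genes Mki67, Cdk1, Cenpf and Bub1 it meant a shift smaller than the within-group SD, and moved meant a larger one. The median difference over all tested probe sets was -0.11, -0.05 after quantile normalization and -0.005 after centring. The number of cell cycle genes with a positive difference, 17, was unchanged by quantile normalization, centring and the offset. Over all probe sets, 523 passed as higher and 154 as lower; the block gave 1411 and 1611, and no intensity trend 297 and 33. The cause of these changes was not tested. With the offset of 16 the differences of the genes with dim control arrays were smaller: 0.72 for Mcm2, 0.37 for Ccnb2, 0.72 for Nusap1, 0.70 for Cdk1, 0.80 for Cenpf and 0.61 for Bub1. Of the 36 genes 12 lay below the filter, and they were not tested in the main setting.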
